A study of Mus musculus with 12 samples.

Results

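Histone methylation and deacetylation enzymes were examined in the amygdala of female mice of the inbred strain C57/BL6, in which individuals carry nearly the same genome. The members were the protein-coding genes whose symbol starts with Kdm, Kmt, Hdac, Setd or Prmt, or is Sirt1 to Sirt7, with at least 10 estimated counts in total over the 11 mice that have an anxiety group. The rule found 62 genes among the 26963 genes that passed the same count minimum and the 47729 genes of the deposited table. No gene with such a symbol fell under the minimum, and 2 further genes with such names were left out because they are not protein coding. The mRNA of both amygdalae was sequenced with 1 library per mouse, and all 12 mice were untreated females of 1 strain that passed through the elevated plus maze, the light/dark box and the three-chamber social interaction test before tissue was taken. The sample labels put 3 mice in the less anxious group (mice 3, 7 and 12), 4 in the anxious group (mice 1, 4, 8 and 11) and 4 in the more anxious group (mice 2, 6, 9 and 10), while mouse 5, which the study set aside, has no group. The study formed these groups by cutting PC2, the second principal component of the same expression data, into tertiles. A p-value for a difference between the groups is therefore not independent evidence, because the genes helped to place the mice. The labels did not follow behavior in every mouse. More anxious mouse 6 was the highest of all mice for open-arm time (29.2%), light time (46.6%) and light distance (41.9%). The lowest open-arm times, 2.33% to 4.30%, belonged to more anxious mice 2, 9 and 10. Each mouse is its own library, and whole bilateral tissue was used, so a lower level could not be told apart from fewer cells of a type.

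DNA in the nucleus is wound on histones, and enzymes add or remove small chemical marks on the histone tails. The Kmt and Setd families hold most of the lysine methyltransferases ("writers"), the Prmt family methylates arginine, and the Kdm family takes lysine methylation away ("erasers"). Methylation of lysine 4 of histone H3 (H3K4) is typical of active promoters and enhancers, whereas methylation of lysine 27 (H3K27) by Polycomb and of lysine 9 (H3K9) goes with silent genes. The Hdac enzymes and the NAD-dependent sirtuins remove acetyl groups, from histones and from many other proteins. In neurons, several of these enzymes are known for roles in memory, stress responses and developmental brain disorders.

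The libraries held between 31745630 and 45142355 estimated counts in the 11 mice with a group and 32682574 in mouse 5, and the 62 enzymes took between 0.315% and 0.352% of the counts of those 11 mice. No library pair matched within sampling noise, with a mean chi-square per gene of at least 17.5 over 66 pairs. The neuronal markers Snap25 (1580 to 2454 CPM, the estimated counts scaled to a common library size with TMM factors) and Slc17a7 were high in every mouse, and 0 of the 6 marker genes of amygdala nuclei were at 0 in any mouse. The choroid plexus and striatal markers were not at 0 in any mouse either, so this does not identify the tissue. Of the 6 amygdala nucleus markers, 5 were lower and 1 higher by fold change in the more than in the less anxious mice. The summed neuronal markers were 4356 to 4697 CPM in the less anxious and 4540 to 5591 CPM in the more anxious mice, with 4 of 6 genes higher by fold change. The summed astrocyte markers were 1064 to 1299 CPM and 796 to 1012 CPM, with 5 of 5 genes lower, and the 5 microglial markers were lower as well. The 5 striatal projection neuron markers ran from 123 to 418 CPM in the less and from 84.9 to 233 CPM in the more anxious mice. Of the pituitary genes, Prl and Gh were at 0 in at least 1 mouse. The summed pituitary markers were nevertheless 55.7 CPM in mouse 4 and 13.7 CPM in mouse 11, both anxious. In the other mice with a group they ran from 1.11 CPM in mouse 6 to 4.95 CPM in mouse 1. The part of cell make-up in the group differences below was not tested.

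The RefSeq promoter table (GRCm38.p6) gave 68 promoters for 51 of the 62 enzymes, each from 250 bases before to 50 after a transcription start. These windows had a median GC content of 61.5% and a median of 21.5 CpG dinucleotides, against 52.7% and 7 over all 32851 promoters of the table. The GC box GGGCGG, read on both strands, was present in 43 of the 68 (63.2%) and in 35.7% of all promoters. The E-box CACGTG was in 6 (8.82% against 7.15%), the TATA box TATAAA in 4 (5.88% against 13.6%) and the cAMP response element TGACGTCA in 1 (1.47% against 1.79%). Those of 4 enzymes that recur in the comparisons are shown. They are Kmt2a, which had the lowest p of the enzymes for the social ratio at 5 and 10 min, Kmt2d and Hdac8, whose less and more anxious mice did not overlap, and Kdm5b, which had an unadjusted p under 0.05 across the groups. Capitals mark the GC box or TATA box on either strand, and all are written 5′ to 3′ on the strand of the gene.
Kmt2a, chr9:44881240-44881539, minus strand: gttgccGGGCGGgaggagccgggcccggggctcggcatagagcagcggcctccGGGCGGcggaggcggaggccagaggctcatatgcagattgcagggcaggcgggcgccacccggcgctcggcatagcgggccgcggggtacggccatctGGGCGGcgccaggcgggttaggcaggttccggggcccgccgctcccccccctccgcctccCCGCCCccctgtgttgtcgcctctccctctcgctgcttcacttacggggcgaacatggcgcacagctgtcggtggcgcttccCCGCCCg
Kmt2d, chr15:98871156-98871455, minus strand: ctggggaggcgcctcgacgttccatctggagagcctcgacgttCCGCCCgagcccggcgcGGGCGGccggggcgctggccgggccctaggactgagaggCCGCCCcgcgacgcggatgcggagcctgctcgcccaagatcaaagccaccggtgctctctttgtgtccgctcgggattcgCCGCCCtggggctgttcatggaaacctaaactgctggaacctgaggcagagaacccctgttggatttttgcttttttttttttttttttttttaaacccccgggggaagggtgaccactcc
Kdm5b, chr1:134559928-134560227, plus strand: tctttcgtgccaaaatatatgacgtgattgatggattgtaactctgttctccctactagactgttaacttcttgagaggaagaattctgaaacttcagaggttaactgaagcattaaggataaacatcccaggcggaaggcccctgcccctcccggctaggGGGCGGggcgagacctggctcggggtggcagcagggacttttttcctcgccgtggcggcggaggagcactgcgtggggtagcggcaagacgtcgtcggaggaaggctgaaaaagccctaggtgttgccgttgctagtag
Hdac8, chrX:102505109-102505408, minus strand: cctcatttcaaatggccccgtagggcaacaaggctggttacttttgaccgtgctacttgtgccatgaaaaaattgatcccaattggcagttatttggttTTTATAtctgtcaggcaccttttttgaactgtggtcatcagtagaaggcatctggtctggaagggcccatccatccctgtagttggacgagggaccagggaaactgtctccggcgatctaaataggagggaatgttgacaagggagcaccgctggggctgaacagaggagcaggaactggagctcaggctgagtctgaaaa
The window of Kmt2a held 5 GC boxes and had a GC content of 75.7%, that of Kmt2d held 4 (62.7%) and that of Kdm5b 1 (54.7%). The window of Hdac8 held no GC box and 1 TATA box, at a GC content of 49.7%. A match of letters is not a bound site, and no binding was measured.

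All 62 enzymes had a mean of at least 1 CPM, and 54 of them had at least 10 CPM in every mouse. Between genes, levels are compared per kb of exon sequence, as the mean ± SD over the 11 mice. Hdac11, the only class IV deacetylase, had the highest level at 57.0 ± 14.0 CPM per kb. Setd3, a SET-domain enzyme that methylates a histidine of actin, followed at 28.7 ± 8.82 CPM per kb. Prmt2 (24.1 ± 1.80), Hdac3 (24.0 ± 1.61), Sirt2 (23.6 ± 1.20) and Hdac2 (21.2 ± 3.22 CPM per kb) came next and lay within their spread of each other. Prmt2 is an arginine methyltransferase and nuclear receptor coactivator, Hdac3 is the deacetylase of the NCoR complexes, and Sirt2 is a mostly cytoplasmic deacetylase known from myelinating cells. The highest class II deacetylase was Hdac5 (16.3 ± 2.11 CPM per kb), which shuttles between nucleus and cytoplasm with neuronal activity. The highest demethylase was Kdm4b (12.4 ± 2.32 CPM per kb), an eraser of H3K9 methylation. In the group listed as H3K4 methyltransferases Kmt2a (10.8 ± 1.42), Setd1a (10.1 ± 1.50), Setd7 (9.85 ± 0.888) and Kmt2e (9.35 ± 0.675 CPM per kb) did not differ beyond their spread. The grouping is by gene list, and no enzyme activity was measured. Setd1a overlaps a protein-coding gene on the same strand, so its estimate is less certain.

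**Figure D1:**
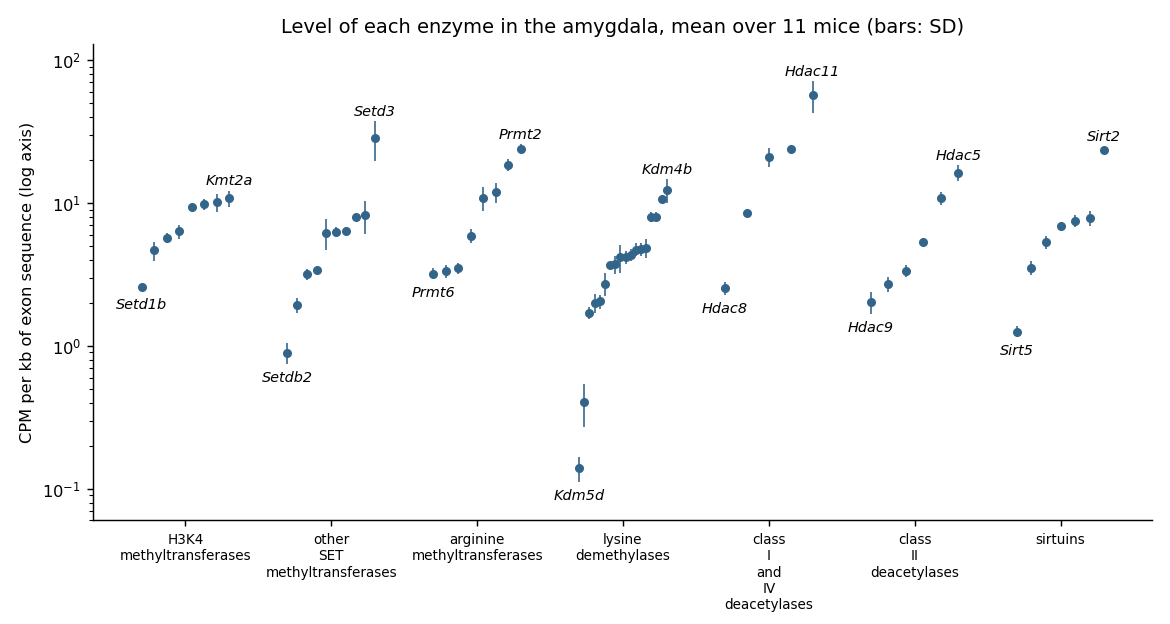
Level of each of the 62 enzymes in CPM per kb of exon sequence (vertical log axis), as the mean over 11 mice with bars of 1 SD, in 7 role groups along the horizontal axis. The highest and lowest member of each group are named, from Hdac11 at 57.0 to Kdm5d at 0.140 CPM per kb.

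The lowest levels belonged to Kdm5d at 0.140 ± 0.0272 and Kdm4d at 0.405 ± 0.133 CPM per kb. Kdm5d is a Y-linked gene and all mice were female, so its 1.21 to 2.65 CPM are not read as expression of the gene. Its X-linked paralog Kdm5c lay between 49.0 and 64.9 CPM, and how reads were divided between the 2 genes was not tested. Kdm4d, an H3K9 demethylase best known from testis, ran from 0.695 CPM in mouse 10 to 2.13 CPM in mouse 6. The level in mouse 6 was therefore far above the median of 1.10 CPM.

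The SD of log2 CPM over the 11 mice was below the median of all genes with a mean of at least 1 CPM in 44 of 62 enzymes. Those genes were not matched to the enzymes for level, and the part of counting noise in this was not tested. The members named next for their spread were chosen after their values were seen. The steadiest were Setdb1, an H3K9 methyltransferase (SD 0.058), Kdm3b, an H3K9 demethylase (0.065), and Kmt5b, which methylates histone H4 at lysine 20 (0.069). The most variable were Setd3 (SD 0.42), Kdm4d (0.41), Kmt5a (0.37) and Hdac11 (0.36). Setd3 was lowest in mouse 4 at 108 CPM, at 159 CPM in the median mouse, and highest in mouse 9 at 288 CPM. Hdac11 was lowest in mouse 4 at 145 CPM, with a median of 222 CPM, and highest in mouse 11 at 309 CPM. The extremes of Setd3 fell in mice of different groups, and both extremes of Hdac11 in anxious mice.

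The main comparison asked whether any enzyme differed across the less anxious, anxious and more anxious mice, and none passed the test. In edgeR's quasi-likelihood test with the first principal component as a covariate, 0 of 62 enzymes had a Benjamini-Hochberg adjusted p under 0.05, where 2 of all 26963 genes (0.00742%) did. DESeq2's likelihood ratio test of the same model called 186 of 34511 genes (0.539%) and 0 of the 62. At an unadjusted p under 0.05, edgeR counted 2 enzymes (3.23%), Kdm6b and Kdm5b, beside 6.35% of all genes. DESeq2 counted 3, with Hdac8 added, beside 4.96% of all genes. The share of enzymes was thus not above that of all genes, and 38 of the 62 had a log2 fold change between more and less anxious mice smaller than its own SE. The SEs ran from 0.08 to 0.34 with a median of 0.13 (log2), so small changes were not detectable with these numbers of mice. In all, 26 enzymes had a positive and 36 a negative fitted log2 fold change between more and less anxious mice, with a median of -0.03 beside 0.00 over all genes.

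Kdm6b, which erases trimethylation of H3K27 and so opposes Polycomb silencing, had the lowest p of the enzymes. It lies on chromosome 11 from 69398508 to 69413675 (mm10, minus strand). Its level was 17.3, 29.4 and 23.6 CPM in less anxious mice 3, 7 and 12, and 23.8, 32.4, 32.9 and 25.2 CPM in anxious mice 1, 4, 8 and 11. It was 39.1, 34.1, 26.6 and 34.2 CPM in more anxious mice 2, 6, 9 and 10. Mouse 3 was the lowest and mouse 2 the highest, and the groups overlapped because mouse 7 lay above mouse 9. The group means were 23.4 ± 6.08, 28.6 ± 4.75 and 33.5 ± 5.16 CPM (SD, n = 3, 4 and 4), and the log2 fold change between more and less anxious mice was 0.45 with an SE of 0.13. The edgeR p was 0.0089 and its adjusted p 0.588, and DESeq2 gave 0.00375 and 0.168. The study chose a gene list on these samples that holds Kdm6b, so its direction here is not a separate observation. With an offset for GC content the fold change was 0.32 and the p 0.079. The antisense gene Kdm6bos overlaps it with 11 to 20 counts per mouse, against 12090 counts for Kdm6b in total, and whether strand was used in counting is not given in the sources used here.

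Kdm5b, an eraser of H3K4 methylation, was highest in the middle group. It was 57.6, 59.2 and 59.0 CPM in mice 3, 7 and 12, then 60.2, 69.2, 72.2 and 78.1 CPM in mice 1, 4, 8 and 11, and 49.8, 66.8, 50.6 and 57.7 CPM in mice 2, 6, 9 and 10. The less anxious mice were close together and all below the anxious mice, while mouse 6 of the more anxious group lay among the anxious mice. The edgeR p across the groups was 0.0267, with an adjusted p of 0.71. Between more anxious and anxious mice the log2 fold change was -0.31 with an SE of 0.10, and between anxious and less anxious mice 0.23 with an SE of 0.12. Kdm3a, an H3K9 demethylase, and Kdm4b had the opposite shape, with their lowest means in the anxious mice. Kdm3a averaged 38.2 ± 3.14, 32.6 ± 2.21 and 37.4 ± 2.67 CPM in less anxious, anxious and more anxious mice (adjusted p = 0.827 in edgeR). Kdm3a was 37.2, 35.7 and 41.8 CPM in mice 3, 7 and 12, 31.7, 35.5, 30.3 and 33.0 CPM in mice 1, 4, 8 and 11, and 40.9, 38.1, 36.0 and 34.7 CPM in mice 2, 6, 9 and 10. All anxious mice lay below all less anxious mice, and mouse 4 lay above mouse 10. Kdm4b was 58.8, 81.2 and 56.2 CPM in mice 3, 7 and 12, 47.1, 62.6, 49.8 and 53.8 CPM in mice 1, 4, 8 and 11, and 69.3, 70.5, 70.9 and 45.9 CPM in mice 2, 6, 9 and 10. Its groups overlapped in both directions, and mouse 10 was the lowest of all.

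**Figure D2:**
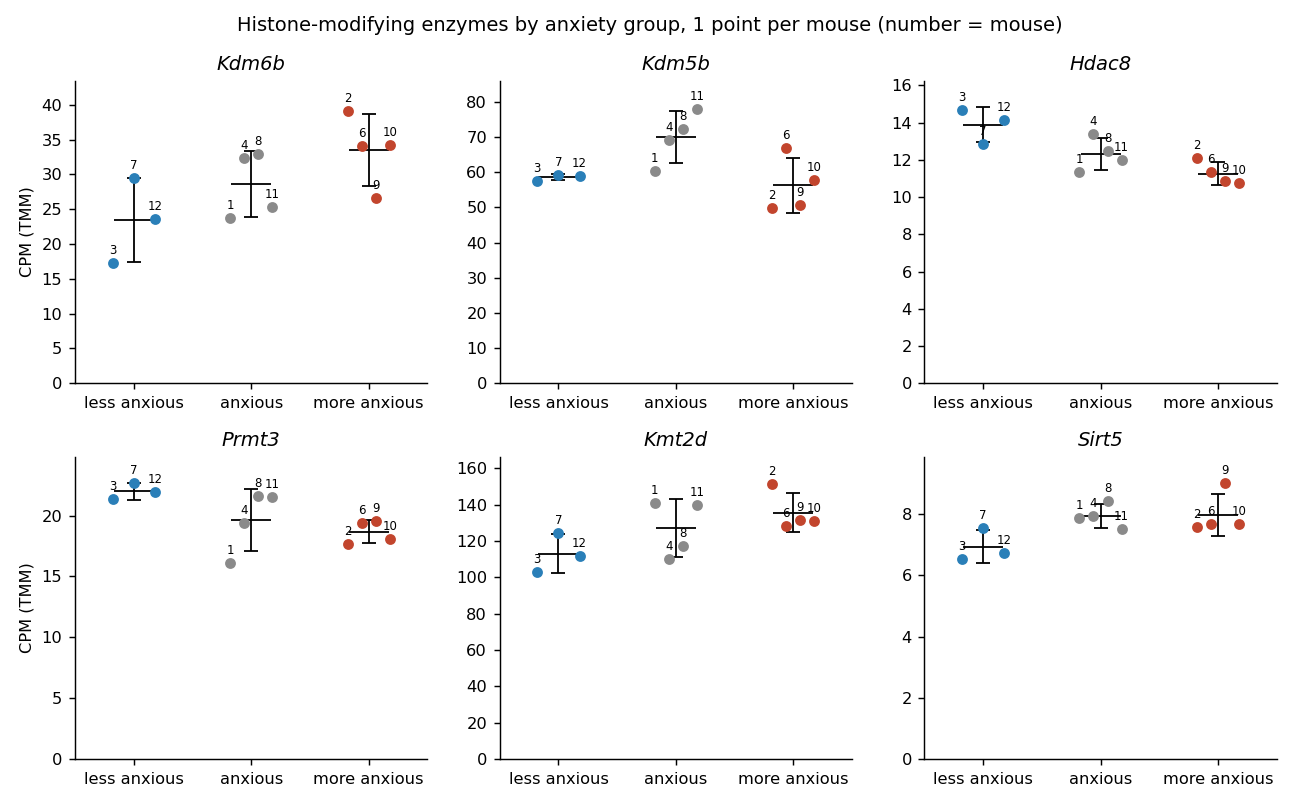
CPM of 6 enzymes (vertical axes, from 0) in the less anxious, anxious and more anxious mice, with 1 numbered point per mouse, the group mean as a black line and bars of 1 SD (n = 3, 4 and 4). Kdm6b averaged 23.4, 28.6 and 33.5 CPM with overlapping points, Kdm5b was highest in the anxious mice, and the points of Hdac8, Prmt3, Kmt2d and Sirt5 in the less anxious mice are apart from those in the more anxious mice.

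Only 4 of the 62 enzymes had no overlap between the less and the more anxious mice, a count read beside 4.49% of all genes without overlap and higher, and 3.91% without overlap and lower. The 2 higher ones were Kmt2d and Sirt5 and the 2 lower ones Hdac8 and Prmt3, 3.23% of the enzymes in each direction, so neither share was above that of all genes. Hdac8 is an X-linked class I deacetylase whose known substrate is the cohesin subunit Smc3. It was 14.7, 12.9 and 14.2 CPM in mice 3, 7 and 12, 11.4, 13.4, 12.5 and 12.0 CPM in mice 1, 4, 8 and 11, and 12.1, 11.4, 10.9 and 10.8 CPM in mice 2, 6, 9 and 10. Every more anxious mouse lay below every less anxious mouse, with anxious mice between and beside them. The log2 fold change was -0.31 with an SE of 0.12 (adjusted p = 0.811 in edgeR and 0.498 in DESeq2). Prmt3, the methyltransferase of ribosomal protein S2, was 21.3, 22.7 and 21.9 CPM in mice 3, 7 and 12, 16.1, 19.4, 21.6 and 21.5 CPM in mice 1, 4, 8 and 11, and 17.6, 19.4, 19.5 and 18.1 CPM in mice 2, 6, 9 and 10. The less anxious mice were the tightest group, and mouse 1 was the lowest of all. Its log2 fold change was -0.25 with an SE of 0.12 (adjusted p = 0.872 in edgeR).

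Kmt2d, which writes H3K4 methylation at enhancers, was 103, 124 and 112 CPM in mice 3, 7 and 12, 141, 110, 117 and 140 CPM in mice 1, 4, 8 and 11, and 152, 128, 131 and 131 CPM in mice 2, 6, 9 and 10. The less and more anxious mice were separated by a small gap between mouse 7 and mouse 6, and the anxious mice overlapped both ranges. The log2 fold change was 0.27 with an SE of 0.11 (adjusted p = 0.848 in edgeR), and 0.15 with the GC offset. Sirt5, a mitochondrial sirtuin that removes succinyl and malonyl groups, averaged 6.95 ± 0.539 CPM in less anxious and 7.99 ± 0.687 CPM in more anxious mice. Its gap was narrower still, from 7.55 CPM in mouse 7 to 7.60 CPM in mouse 2, and the edgeR adjusted p was 0.932. Setdb2, an H3K9 methyltransferase, completed the 8 enzymes with the lowest p. It was 4.28, 3.04 and 3.15 CPM in mice 3, 7 and 12, 4.37, 3.60, 3.82 and 4.38 CPM in mice 1, 4, 8 and 11, and 3.54, 2.46, 3.90 and 3.37 CPM in mice 2, 6, 9 and 10. Its log2 fold change between more and less anxious mice was 0.00 with an SE of 0.17, and mouse 6 was the lowest.

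By role, none of the 7 groups held an enzyme past the adjusted threshold in edgeR. Of the 8 enzymes listed as H3K4 methyltransferases 4 had a positive and 4 a negative log2 fold change, with a median of 0.00. The 10 other SET-domain enzymes split 4 to 6 (median -0.02), with Kmt5a, the monomethyltransferase of H4 lysine 20, the highest at 0.39 with an SE of 0.19. Kmt5a was 18.4, 37.4 and 25.6 CPM in less anxious mice 3, 7 and 12, and 49.2, 30.1, 32.4 and 34.0 CPM in more anxious mice 2, 6, 9 and 10. The groups overlapped through mouse 7, and mouse 3 was the lowest and mouse 2 the highest. Of the 8 arginine methyltransferases 7 were negative (median -0.06), from Prmt3 at -0.25 to Prmt6 at 0.02. Of the 18 demethylases 13 were negative (median -0.06), and Kdm6b had the highest value of all at 0.45. The 5 class I and IV deacetylases split 2 to 3 (median -0.13). Of the 6 class II deacetylases 5 were positive (median 0.12), as were 5 of the 7 sirtuins (median 0.05). Over all genes tested the median was 0.00.

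**Figure D3:**
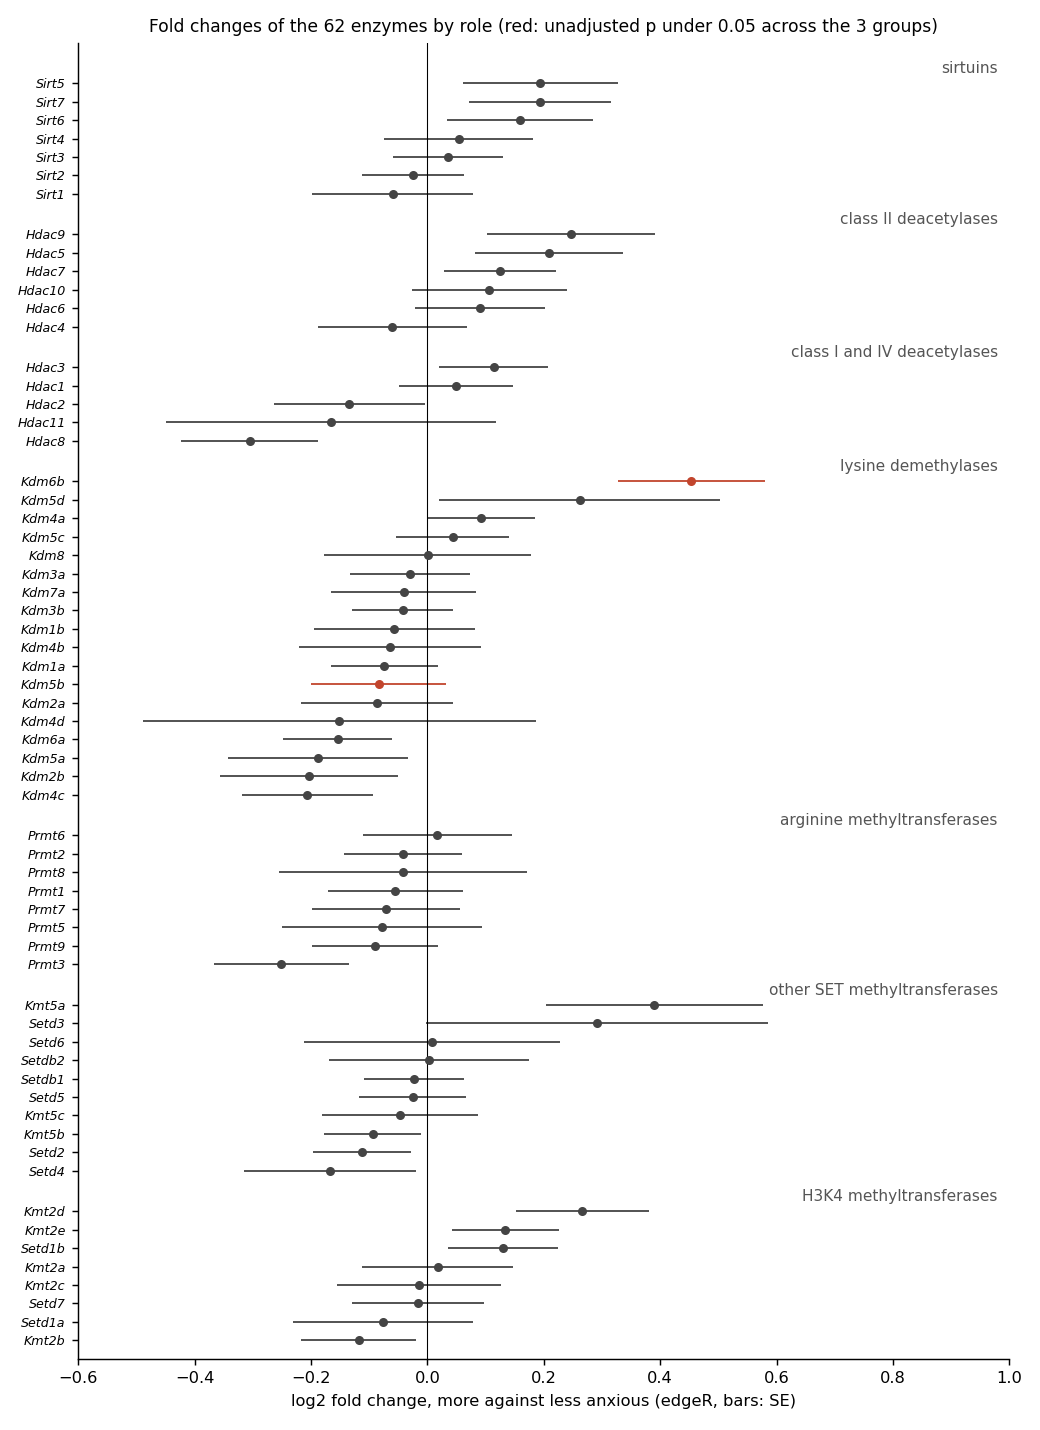
Log2 fold change between more and less anxious mice (horizontal axis) of each of the 62 enzymes, grouped by role, with bars of 1 SE from edgeR; red marks an unadjusted p under 0.05 across the 3 groups. Kdm6b stands highest at 0.45 and Hdac8 lowest at -0.31, and most bars cross 0.

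At the other end of the list stood enzymes with almost equal group means. Prmt6, which methylates arginine 2 of histone H3, averaged 13.7 ± 2.25, 13.3 ± 0.706 and 13.6 ± 0.708 CPM in less anxious, anxious and more anxious mice. Kdm8 averaged 4.09 ± 0.397, 4.04 ± 0.613 and 4.15 ± 0.292 CPM. Setd7, a monomethyltransferase of H3K4 and other proteins, averaged 107 ± 7.13, 108 ± 12.3 and 105 ± 10.9 CPM. Kdm7a, an eraser of H3K9 and H3K27 methylation, averaged 43.1 ± 1.80, 42.2 ± 4.15 and 41.5 ± 6.45 CPM. Their edgeR adjusted p-values lay between 0.998 and 0.999. Of the most abundant enzymes, Hdac11 averaged 233 ± 41.5, 223 ± 74.1 and 206 ± 51.0 CPM, with an SD larger than the difference. Setd3 averaged 170 ± 42.2, 143 ± 31.9 and 206 ± 67.3 CPM, and mouse 9 alone reached 288 CPM. Its log2 fold change between more anxious and anxious mice was 0.53 with an SE of 0.27 (adjusted p across the groups = 0.904 in edgeR). Prmt2 averaged 81.6, 83.0 and 79.7 CPM with SDs of at most 9.93 CPM. Sirt2 averaged 120 ± 4.32, 118 ± 7.87 and 118 ± 6.83 CPM, and Kmt2a 173 ± 36.3, 185 ± 6.13 and 181 ± 29.6 CPM. Hdac5 averaged 136 ± 16.9, 138 ± 20.1 and 154 ± 17.3 CPM, a log2 fold change of 0.21 with an SE of 0.13.

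Fold changes moved with the GC content of the genes. Among genes with a mean of at least 1 CPM, the median log2 fold change between more and less anxious mice was 0.17 for the 1483 genes with at least 58% GC and -0.09 for the 1691 genes under 42% GC. The 9 enzymes with at least 58% GC had a median of 0.13, with 6 positive, and the 52 enzymes between the limits had a median of -0.04, with 20 positive. Kdm6b (59.0% GC), Kmt2d (58.3%) and Hdac5 (60.0%) belong to the first set, and Hdac8 (45.2%) and Prmt3 (47.5%) to the second. With a GC offset in the fit the medians became -0.01 and -0.03, and Hdac5 fell from 0.21 to 0.04. In that fit 5.67% of all genes had an unadjusted p under 0.05, and among the enzymes these were Kdm5b and Kdm4b, with edgeR p-values of 0.029 and 0.0376, and not Kdm6b. What part GC content had in the fold changes beyond this was not tested.

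**Figure D4:**
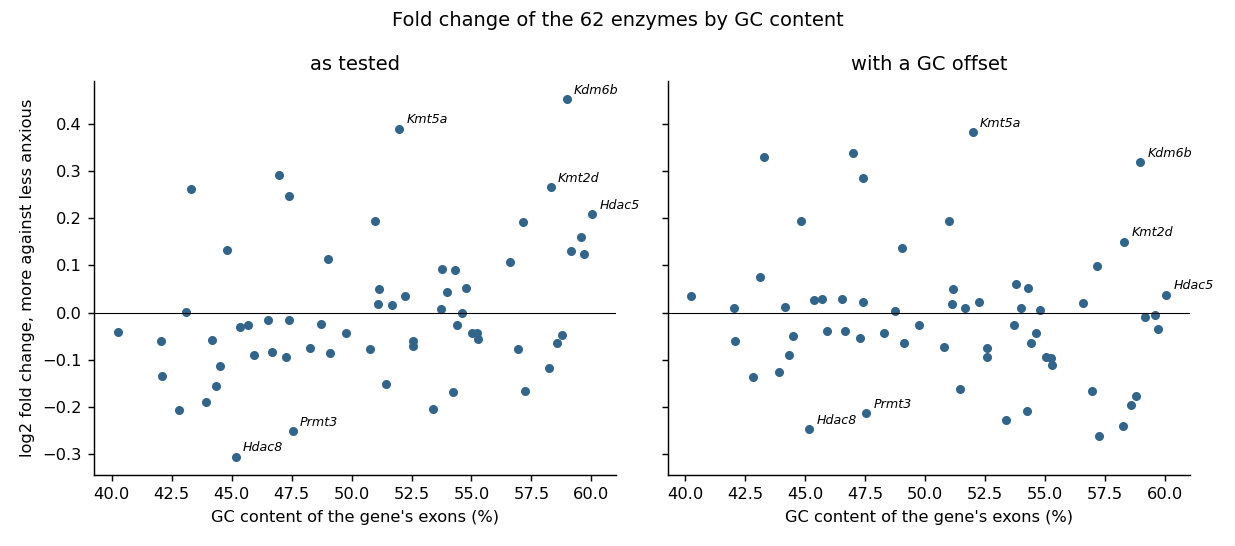
Log2 fold change between more and less anxious mice (vertical axis) against the GC content of the exons (horizontal axis, %) for the 62 enzymes, as tested on the left and with a GC offset on the right. The GC-rich enzymes at the right of the left panel sit mostly above 0, with Kdm6b at 0.45, and are spread around 0 in the right panel, with Kdm6b at 0.32.

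Genes that work with these enzymes were read in the same fit. None of 18 other writers and erasers outside the symbol rule (such as Ezh2 and Dot1l), 24 subunits of their complexes and 9 acetyltransferases had an adjusted p under 0.05 in edgeR. At an unadjusted p under 0.05 the counts were 0 of 18, 3 of 24 (12.5%) and 0 of 9, beside 6.35% of all genes. The 3 subunits were Men1, Suz12 and Rcor2. Men1, the menin subunit that recruits Kmt2a and Kmt2b, averaged 53.0 ± 2.13, 61.7 ± 0.726 and 68.0 ± 11.1 CPM, a log2 fold change of 0.38 with an SE of 0.11 (edgeR adjusted p = 0.648). Suz12, a core subunit of the Polycomb complex that writes the mark Kdm6b removes, averaged 43.8 ± 8.72, 34.1 ± 4.90 and 32.3 ± 5.80 CPM, with a log2 fold change of -0.34 and an SE of 0.11 (edgeR adjusted p = 0.698). Rcor2, a cofactor of Kdm1a, averaged 8.49 ± 1.77, 7.81 ± 1.26 and 10.1 ± 0.868 CPM. With the GC offset the log2 fold changes were 0.25 for Men1, -0.26 for Suz12 and 0.04 for Rcor2.

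The enzymes were next set against each of 7 behavior measures of the labels, with the slope given as log2 change per SD of the measure. For the elevated plus maze these were the share of time on the open arms and the number of entries, and for the light/dark box the shares of distance and of time in the light. For the social test it was the box:zone ratio after 3, 5 and 10 min. The labels do not define the ratio, which is read here, after the study's text, as direct (box) against distant (zone) contact with a stranger mouse. Mouse 4 has no value at 3 min. By edgeR's quasi-likelihood test, 0 of 62 enzymes had an adjusted p under 0.05 for any measure. The adjusted calls over all genes were 0% for open-arm time, 0% for entries, 0% for distance in light, 0.00742% for time in light, and 0.015%, 0.0111% and 0.0223% for the ratio at 3, 5 and 10 min. Over all 434 pairs of enzyme and measure, 36 had an unadjusted p under 0.05, from 17 enzymes. The same pooled counts over all genes were not made, and the measures share the same mice. These pooled counts are therefore not read as a result about the enzymes, and the shares per measure follow.

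For open-arm time 5 enzymes had an unadjusted p under 0.05 (3 rose and 2 fell with it), beside 5.84% of all genes. For entries it was 5 (2 and 3; 6.97%), for distance in light 5 (2 and 3; 5.8%) and for time in light 3 (2 and 1; 3.55%). For the ratio at 3 min it was 6 (2 and 4; 7.65%), at 5 min 5 (1 and 4; 6.56%) and at 10 min 7 (3 and 4; 8.05%). The shares of the 62 enzymes were between 4.84% and 11.3% and so close to the backgrounds.

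Kdm5a, an H3K4 demethylase named for its binding to the retinoblastoma protein, had the lowest p of any enzyme for any measure. In the order of the 3-min ratio, from mouse 7 (0.236) through mice 12, 6, 2, 1, 11, 8, 10 and 3 to mouse 9 (1.84), it was 46.9, 44.4, 50.6, 33.7, 41.7, 38.4, 38.6, 36.5, 29.5 and 27.9 CPM. The 2 mice with the highest ratios had the lowest levels, and mouse 2 lay below its neighbours. The slope was -0.23 with an SE of 0.06, edgeR gave a p of 0.00112 and an adjusted p of 0.286, and the unadjusted p stayed between 0.000254 and 0.0104 when each mouse was left out. DESeq2's likelihood ratio test called Kdm5a (adjusted p = 0.0264) and Kdm2a (0.0459), 2 of the 165 genes (0.482%) it called for this measure. The same gene had an edgeR p of 0.00996 for open-arm time, where it rose by 0.17 with an SE of 0.06 per SD (adjusted p = 0.709). Kdm5a had an unadjusted p under 0.05 for 5 of the 7 measures, which share the same mice. With each mouse left out in turn, its unadjusted edgeR p reached 0.0601 for open-arm time and 0.244 for the 5-min ratio. It reached 0.248 for distance in light and 0.259 for time in light.

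Kdm2a, an eraser of H3K36 methylation that binds CpG islands, and Kmt2a, the founding H3K4 methyltransferase of its family, fell with the social ratio at each time. Kdm2a was singled out after its values were seen. In the same order of mice Kdm2a was 87.4, 79.0, 80.8, 67.9, 70.1, 69.4, 77.8, 67.7, 45.8 and 60.2 CPM, and Kmt2a was 187, 200, 195, 214, 183, 188, 192, 168, 132 and 147 CPM. Mouse 3 was the lowest for both, followed by mouse 9. At 3 min the slopes were -0.20 with an SE of 0.05 for Kdm2a (n = 10, p = 0.00204, adjusted p = 0.329, edgeR) and -0.17 with an SE of 0.05 for Kmt2a (p = 0.0044, adjusted p = 0.398). At 10 min, where mouse 3 has a ratio of 2.62 and the other 10 mice have 0.495 to 1.58, the slopes were -0.18 (n = 11, p = 0.00794) and -0.15 (p = 0.00458) in edgeR. Without mouse 3 they were -0.03 (n = 10, p = 0.535) and -0.07 (p = 0.178). At 3 min, without mouse 3 and with 9 mice left, the slopes were -0.13 for Kdm2a and -0.12 for Kmt2a, with edgeR p-values of 0.00795 and 0.0246. At 5 min the edgeR p-values went from 0.0167 to 0.486 for Kdm2a and from 0.00304 to 0.0824 for Kmt2a when mouse 3 was left out. With ranks in place of values the edgeR p-values at 5 and 10 min were 0.00784 and 0.0285 for Kmt2a and 0.0803 and 0.143 for Kdm2a. Mouse 3 also had the lowest PC1 score (-27.4), and mouse 9 the next lowest (-14.6). With PC1 as a covariate the 3-min edgeR p-values were 0.0119 for Kdm5a, 0.0284 for Kdm2a and 0.0302 for Kmt2a, unadjusted.

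**Figure D5:**
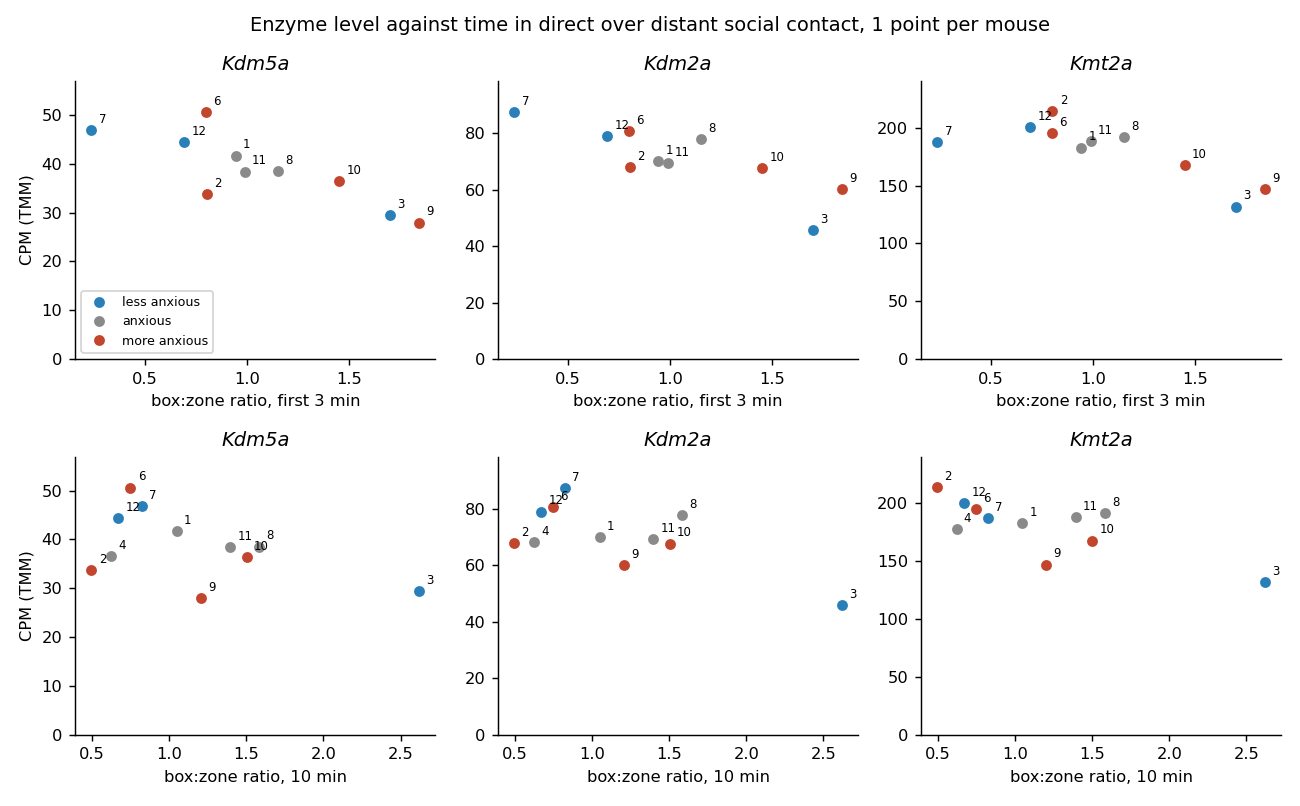
CPM of Kdm5a, Kdm2a and Kmt2a (vertical axes, from 0) against the box:zone ratio (horizontal axes, no unit) in the first 3 min (top, 10 mice) and over 10 min (bottom, 11 mice), with 1 numbered point per mouse colored by anxiety group. Mice 3 and 9, with ratios of 1.70 and 1.84 at 3 min, are the lowest in all top panels, and mouse 3, at 2.62, stands alone in the bottom panels.

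The remaining measures each had another enzyme at the lowest p. For distance in light it was Kmt5a, which fell by 0.23 per SD with an SE of 0.08 (n = 11, edgeR p = 0.00894, adjusted p = 0.827). Kmt5a was 49.2 CPM in mouse 2, which has the lowest share of the 11 mice at 16.6%, and 30.1 CPM in mouse 6, which has the highest at 41.9%. Its lowest level, 18.4 CPM, was in mouse 3, at 37.8%. The edgeR p without each mouse in turn reached 0.0825. For time in light it was Kdm4d, which rose by 0.30 with an SE of 0.10 (n = 11, edgeR p = 0.0105). Mouse 6, with 46.6% of its time in light and 2.13 CPM, was the highest on both, and the p without each mouse in turn reached 0.377. For entries it was Prmt8, the brain-specific, membrane-anchored arginine methyltransferase, which rose by 0.17 with an SE of 0.07 (n = 11, edgeR p = 0.0345, adjusted p = 0.689). Prmt8 was 21.7 CPM in mouse 2, with 6 entries, and 34.1 CPM in mouse 12, with 42. Sirt7, a nucleolar sirtuin singled out after its values were seen, fell with open-arm time and with both light measures by 0.12 to 0.13 per SD, with adjusted p-values of 0.757 and above in edgeR. Sirt7 overlaps the protein-coding gene Mafg on the same strand, so its estimate is less certain.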

How the data were processed

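Bilateral amygdala mRNA of 12 female mice was sequenced with 1 stranded library per mouse in a single run. The authors used cutadapt for trimming and STAR with mm10 for quality control, and deposited estimated counts (expected counts) per gene from Salmon and tximport, as whole numbers and without normalization. The check found 0 values that were not whole. Tool versions and the annotation release are not given in the sources used here. The submitters' processing notes also name CASAVA and DESeq2.

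Groups and behavior measures came from the sample labels. Gene names, coordinates, exon lengths and GC content came from GENCODE M21 (GRCm38), which matched 99.1% of the genes. The main fit was edgeR 4.0.16 (R 4.3.3) with TMM factors, at least 10 counts in total over 11 mice, robust quasi-likelihood F-tests across the 3 groups with the PC1 score (19.9% of the variance of DESeq2's transformed counts) as a covariate, and Benjamini-Hochberg adjustment over 26963 genes. Each behavior measure was tested as a standardized number without PC1. DESeq2 1.42.0 likelihood ratio tests were run beside them. CPM used TMM factors and log2 CPM a prior count of 2. Figures used Python with matplotlib 3.10.9. On simulated counts for the group comparison (200 changed genes, 26447 tested) edgeR recovered 170 with 15 false calls, and DESeq2 181 with 57 (26963 tested). Recovery at fold changes as small as those of the enzymes is not read from these numbers. Only 7 of the 62 enzymes had an absolute log2 fold change over 0.25 between more and less anxious mice.

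The members and the gene lists were chosen with earlier results of these data known. Values per mouse were to be given for enzymes called by either tool and for the 8 with the lowest p, and group means for enzymes at an unadjusted p under 0.05, those without overlap, the highest per role, the 4 with the highest p and the lowest p per measure. Enzymes named outside this rule for their spread are marked, as are Kdm2a and Sirt7. Hdac2, Hdac3, Setd1a, Kmt2e, Kdm5c and Kdm5d were also named outside it, beside the levels of other enzymes, without a mark. Each mouse is 1 replicate, and the tests set a difference or slope against the spread between these mice. Totals of 31745630 to 45142355 counts set the precision, and intervals on single counts would cover counting error only. Alternatives covered the tool, size factors, count filters, PC1, group order as a number, the robust option, a GC offset, ranks, adding mouse 5 and leaving out each mouse. Protein sequences were not used here.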

Additional observations from a re-analysis of the deposited data

Results flagged for a closer look

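Among the enzymes named above, 3 had 1 mouse far from the others of a group of 4, by the ratio of its gap to the range of the group. With 48 groups looked at, about 1 in 20 is flagged by chance. Kdm4b was 45.9 CPM in more anxious mouse 10, and the other 3 more anxious mice lay between 69.3 and 70.9 CPM. Kmt2d was 152 CPM in more anxious mouse 2, against 128 to 131 CPM in the other 3. Sirt5 was 9.02 CPM in more anxious mouse 9, against 7.60 to 7.68 CPM in the other 3. The mouse differed each time.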

How the results depend on the processing

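The count of 0 enzymes past the adjusted threshold across the groups was the same under all 19 alternatives, and for the behavior measures it was the same except for the 3-min ratio, where DESeq2 called 2. The number at an unadjusted p under 0.05 across the groups (2) was 4 with the group order as a number and ran from 1 to 5 when a mouse was left out, with 4 without mouse 4 or 6, 5 without mouse 7 and 1 without mouse 2, 8, 9 or 11. The median log2 fold change of the enzymes ran from -0.033 to -0.0059 when a mouse was left out, the latter without mouse 6. The number without overlap and higher (2) ran from 2 to 8 (5 without mouse 3, 8 without mouse 7, 4 without mouse 6, 6 without mouse 9), and without overlap and lower (2) from 2 to 5 (5 without mouse 3, 4 without mouse 7 or 2). With fewer mice in a group, ranges without overlap are more likely for any gene. For open-arm time the unadjusted count (5) was 2 with mouse 5 included and 2 to 7 with a mouse left out (2 without mouse 2, 6 or 10). For entries (5) it was 3 with ranks and 0 to 6 (0 without mouse 2, 2 without mouse 6 or 12, 3 without mouse 7). For distance in light (5) it was 2 with mouse 5 and 2 to 6 (2 without mouse 2, 3 without mouse 1). For time in light (3) it was 5 with PC1, 5 with ranks and 2 to 7 (7 without mouse 6). For the ratio at 5 min (5) it was 2 with PC1, 3 with ranks and 3 to 6 (3 without mouse 7), and at 10 min (7) it was 2 with PC1, 3 with ranks and 4 to 9 (4 without mouse 3). At 3 min (6) it ran from 5 to 8. Shares over all genes are not given beside these counts, so the counts are not read as results about the enzymes. The causes of these shifts were not tested.

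Kdm6b had an unadjusted p under 0.05 in 18 of 19 alternatives (log2 fold change 0.32 to 0.53), Kdm5b in 14 and Hdac8 in 3, and the adjusted p of Kdm6b ran from 0.168 to 0.999. Signs turned for enzymes near 0. Kdm3a was 0.026 with the GC offset and ran from -0.12 to 0.038 with a mouse left out (0.038 without mouse 12, 0.011 without mouse 10). Kdm4b ran from -0.19 to 0.087 (0.087 without mouse 7, 0.065 without mouse 10). Setdb2 was -0.043 with the group order as a number, -0.071 without PC1 and ran from -0.073 to 0.066 (-0.073 without mouse 12, -0.043 without mouse 2, -0.037 without mouse 9). No paired analysis was possible because each library came from a different mouse and the labels give no pairing between groups.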

Other observations

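Mouse 5, which belongs to no group, was scaled with factors of all 12 libraries and compared with the range of the 11 others for each enzyme. It lay within that range for 37 enzymes, above it for 13 and below it for 12. The same counts over all genes were not made, so these are not read as a result about the enzymes. Kdm4b was at 19.9 CPM in mouse 5, below the lowest of the others, and Setd3 at 92.9 CPM was below as well. Kdm6b was at 21.8 CPM, Kdm5b at 69.0 CPM, Hdac8 at 11.9 CPM and Kmt2d at 118 CPM, each within the range of the others. Kdm3a at 43.1 CPM and Setdb1 at 61.5 CPM were above it. The library of mouse 5 had 23768 genes with a count, fewer than the 26378 to 28196 of the other mice.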
